A study of Mus musculus with 28 samples.

Results

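Bone marrow-derived macrophages (BMM) without Irgm1 and without the receptor of type I interferons (Irgm_IFNAR-KO, n = 4 libraries) were compared with macrophages that lacked Irgm1 alone (Irgm1-KO, n = 4). These 8 messenger RNA libraries are all libraries of these genotypes in the experiment sequenced for 100 cycles, of 28 libraries in the series, and 4 WT libraries of the same experiment gave the level of intact cells. Both mutant strains had been backcrossed to C57BL/6, the WT strain, and the mice were 2 to 4 months old and of both sexes. Marrow was cultured for 6 days in medium with 20% of a supernatant of L929 cells, a source of macrophage growth factor, and then for 24 h without it, and the labels of the 12 libraries name no further treatment. The Irgm1 deletion is shared by both groups, so the comparison asked which features of Irgm1-deficient macrophages depend on the receptor. No group lacked the receptor alone, so an effect of receptor loss that occurs without Irgm1 deficiency cannot be told apart from one that needs it. The labels do not say whether the 4 libraries of a group came from separate animals, and the p-values then measure only how these libraries vary.

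Type I interferons, interferon beta and the interferon alphas, bind a receptor made of the Ifnar1 and Ifnar2 chains. The receptor activates the kinases Jak1 and Tyk2, and a complex that holds Stat2 and Irf9 then binds the interferon-stimulated response element (ISRE) in the promoters of antiviral genes. Macrophages make a little interferon beta without infection, and this tonic signal keeps many antiviral genes at a basal level. Irgm1 is an interferon-inducible GTPase of intracellular membranes, and its loss in mice is known to raise type I interferon production.

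Of 13998 genes tested, 3014 were higher in Irgm_IFNAR-KO than in Irgm1-KO (21.5%) and 2984 were lower (21.3%). The call was an adjusted p under 0.05 by edgeR's quasi-likelihood test, with Benjamini-Hochberg adjustment. The changes over 2-fold numbered 970 rises (6.93%) and 1113 falls (7.95%). The deepest changes were one-sided: 131 genes fell over 16-fold and 23 rose over 16-fold. Of the 131, 96 lay below 1 CPM (counts per 1 M counts of the scaled library) in Irgm_IFNAR-KO. The median log2 fold change over all genes was 0.02. Levels below are CPM of the scaled library size, and fold changes are log2 values of Irgm_IFNAR-KO over Irgm1-KO with their standard error (SE).

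**Figure D1:**
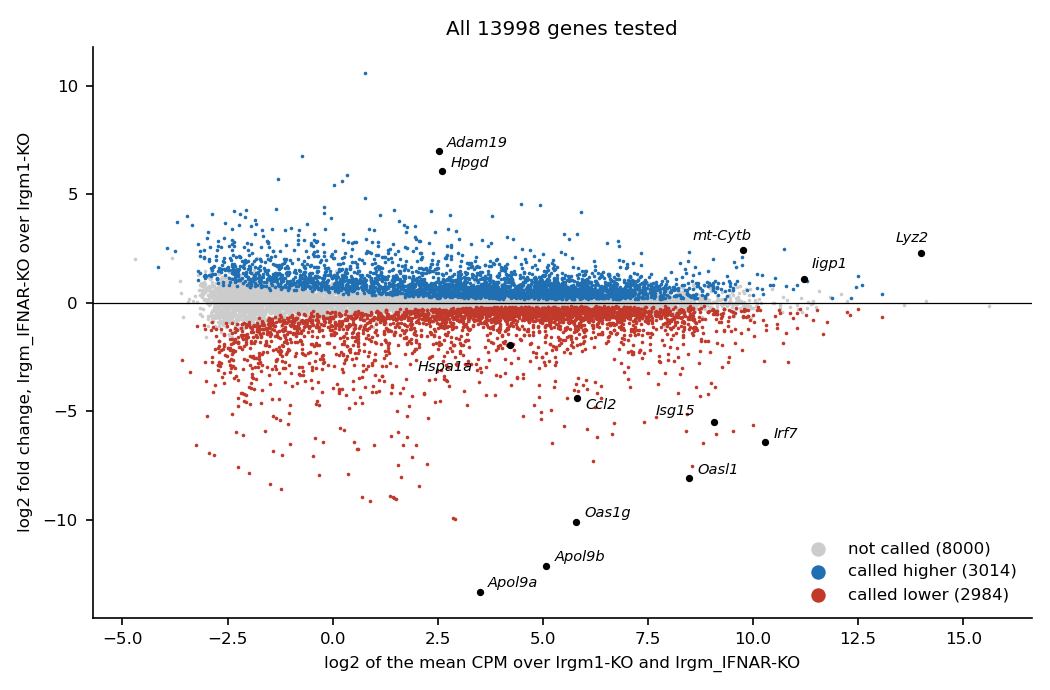
Each point is 1 of the 13998 genes tested, with the log2 of its mean CPM over the 8 libraries on the horizontal axis and the log2 fold change of Irgm_IFNAR-KO over Irgm1-KO on the vertical axis. Blue points were called higher (3014), red points lower (2984) and grey points were not called (8000); Apol9a, Apol9b and Oas1g lie farthest down, and Apol9a, with 0 counts in Irgm_IFNAR-KO, and Gm16867 at the top, with 0 in Irgm1-KO, are drawn at fitted values, which are no measured folds.

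The libraries held 49.9 to 60.0 M counts in Irgm1-KO, from 52.0 to 60.8 M in Irgm_IFNAR-KO and from 48.7 to 70.5 M in WT. Of the variance within groups 53.8% lay on a single axis, on which Irgm1-KO replicate 3, Irgm_IFNAR-KO replicate 4 and WT replicate 2 lay farthest out. Without these 3 libraries 3612 genes were called higher and 4040 lower. With the level of Xist, which is high in all 12 libraries (50.8 to 231 CPM), as a covariate, 4631 were called higher and 4272 lower. The 3 libraries farthest out, all at the same end of the axis, had the lowest Xist of their groups, at 97.9, 97.2 and 50.8 CPM. These alternatives therefore bear on the same axis and are not independent, and what the level of Xist reflects was not tested. All 10 macrophage markers were measured, and their summed level ran from 18000 to 24600 CPM in Irgm1-KO, from 40300 to 52100 in Irgm_IFNAR-KO and from 32700 to 55000 in WT, carried mostly by Lyz2. Of the 10, 4 were called higher and 3 lower. Of 7 B cell markers 2 were in the table, and their sum moved from 24.7-45.3 to 187-199 CPM through Ighm while Cd79b stayed below 1 CPM (0.632 ± 0.273 and 0.352 ± 0.0899). Of 7 endothelial markers 3 were in the table, and their sum moved from 113-199 to 10.2-15.2 CPM through Kdr while Cdh5 lay below 1 CPM in both groups (0.355 ± 0.113 and 0.131 ± 0.0326). Kdr and Cdh5 were called lower, but the other measured endothelial marker was called higher (log2 fold change 0.70). Of 10 neutrophil markers 8 were in the table, with sums of 5.69 to 9.76 CPM in Irgm1-KO and 16.1 to 26.1 in Irgm_IFNAR-KO. The 8 classical monocyte markers summed to 327-966 and 299-396 CPM, with 2 called higher and 4 lower. The 7 measured of 8 dendritic cell markers summed to 26.9-32 and 61.7-71.8, but of 5 tested 2 were called higher and 1 lower (median log2 fold change 0.03). The 4 measured of 7 plasmacytoid dendritic cell markers, led by the interferon-induced Bst2, summed to 1130-1490 and 265-311. The 3 measured of 8 T cell markers summed to 26.9-42.5 and 30.1-40.1 CPM, and the 3 measured of 7 megakaryocyte markers to 56.2-60 and 29.2-32.4. Klrk1, the only 1 of 7 natural killer cell markers measured, was at 74.3-109 and 24.5-32.1. The 2 measured L929-type markers moved from 25.7-30.8 to 2.53-3.08 CPM, a sum carried by Csf1 (means 28.9 and 2.83). The 4 measured of 9 fibroblast markers moved from 1.02-1.6 to 6.76-8.11, mostly through Cxcl12 (means 0.994 and 7.25). The only other fibroblast marker tested was not called (log2 fold change 0.08). The 4 measured of 7 progenitor markers moved from 1.51-1.87 to 3.75-4.39. The L929-type, fibroblast and progenitor sums did not overlap between the groups, while the classical monocyte and T cell sums did. Of all genes tested, 21.2% were higher and 21.1% lower in Irgm_IFNAR-KO without overlap of the libraries. Adipocyte, eosinophil and mast cell markers overlapped between the groups, at 4.67-6.13 and 4.16-4.88, 0.322-0.471 and 0.341-0.642, and 0.0505-0.186 and 0.0179-0.0715 CPM. The part of other cells in the results was not tested, and in bulk RNA fewer cells of a type and less RNA per cell cannot be told apart.

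The whole-gene counts of the targeted genes did not separate the 2 groups. Irgm1 (ENSMUSG00000046879) read 798, 839, 628 and 776 CPM in the Irgm1-KO libraries and 786, 665, 772 and 641 in Irgm_IFNAR-KO, against 1189 to 1352 in WT. The groups overlapped (log2 fold change -0.09, SE 0.102, adjusted p = 0.529, not called). Ifnar1 (ENSMUSG00000022967) read 127, 125, 112 and 120.3 CPM in Irgm1-KO and 114, 109, 53.1 and 108 in Irgm_IFNAR-KO. Only replicate 3 of the double knockout was far below the rest (log2 fold change -0.33, SE 0.188, adjusted p = 0.178, not called). Counts per gene do not separate exons, so they do not check either deletion. Ifnar2, the other receptor chain, was at 102 ± 0.948 and 109 ± 4 CPM (SD, n = 4) and was not called. Of the ligands, Ifnb1 was scarce, at 1.4, 1.73, 3.79 and 1.5 CPM in Irgm1-KO and 0.163, 0.214, 0.233 and 0.625 in Irgm_IFNAR-KO, and the groups did not overlap (log2 fold change -2.77, SE 0.45, adjusted p = 0.000346). All Irgm_IFNAR-KO libraries thus held less transcript of interferon beta itself.

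Downstream of the receptor, Usp18 and Irf7 had the deepest falls of their lists. Of 19 genes of the receptors and the JAK-STAT pathway 10 fell and 2 rose, with a median of -0.33. The isopeptidase Usp18, which removes Isg15 and restrains the receptor, read 565, 556, 947 and 599.6 CPM in Irgm1-KO and 8.66, 11.2, 9.72 and 14.5 in Irgm_IFNAR-KO. Replicate 3 was the highest Irgm1-KO library, and all 4 double knockout libraries lay far below every other (log2 fold change -5.92, SE 0.287). Stat2 fell by 2.21 on the log2 scale (SE 0.151), from 705 ± 76 to 152 ± 14.2 CPM. Irf9 fell by 0.51 (SE 0.0914), Jak1 was at 284 ± 28.9 and 285 ± 18.2 CPM and was not called, and the receptor of interferon gamma, Ifngr1, rose by 1.02 (SE 0.0676) to 207 ± 7.92 CPM. Socs3, a suppressor of cytokine signalling, rose from 12.8 ± 2.07 to 43.3 ± 3.65 CPM. Of 9 interferon regulatory factors 4 fell (2 without Irgm_IFNAR-KO replicate 2) and 1 rose, with a median of -0.01. Irf7, the factor that amplifies interferon production, read 2250.0, 2237, 2996 and 2344 CPM in Irgm1-KO and 25.6, 28.5, 28 and 32.9 in Irgm_IFNAR-KO (log2 fold change -6.42, SE 0.198, adjusted p = 3.16e-10). All 4 double knockout libraries lay below the WT libraries (359.8 to 612 CPM) as well. Irf5 fell by 0.64 (SE 0.0637), Irf4 rose from 0.432 ± 0.183 to 1.32 ± 0.141 CPM, and Irf8 and Irf2 were not called.

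Antiviral effectors fell deeply. The 6 interferon lists (receptors and JAK-STAT, regulatory factors, antiviral effectors, PARP-TRIM-Schlafen, GTPases, nucleic acid sensing) held 158 of the 13998 genes tested. They held 28 of the 131 genes lower by over 16-fold and 0 of the 23 higher by over 16-fold. Of 44 antiviral effectors tested, 40 fell and 2 rose, with a median of -3.87 against 0.02 for all genes, and 39 of the 44 were also lower than in WT. Together they took 2.57% ± 0.242 (SD, n = 4) of the counts in Irgm1-KO, 0.354% ± 0.0121 in Irgm_IFNAR-KO and 0.864% ± 0.0508 in WT. Oasl1, a relative of the oligoadenylate synthetases, read 775, 754, 649 and 676 CPM in Irgm1-KO and 2.7, 2.89, 2.17 and 2.83 in Irgm_IFNAR-KO. Every Irgm_IFNAR-KO library lay below every WT library (32.2 to 37.9) as well (log2 fold change -8.07, SE 0.134, adjusted p = 3.15e-12). Isg15, a ubiquitin-like modifier, read 880.3, 834, 1577 and 940.3 CPM in Irgm1-KO and 18.4, 24.7, 20.4 and 31 in Irgm_IFNAR-KO (log2 fold change -5.49, SE 0.293). Rsad2, the antiviral enzyme viperin, read 2173, 2026, 1905 and 1859 and 44.3, 39.6, 42.8 and 34.5 CPM. Ifi44 went from 744 ± 59.2 to 4.06 ± 1.35 CPM, the exonuclease Isg20 from 145 ± 31.7 to 0.924 ± 0.24, Mx1 from 671 ± 45.7 to 19.2 ± 2.77, and Ifit1 from 948 ± 96.2 to 74.2 ± 1.83. Ms4a4c, a membrane protein of the Ms4a family, went from 893 ± 312 to 10.1 ± 1.48 CPM.

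Some transcripts all but vanished. Oas1g held 25157 counts over the 4 Irgm1-KO libraries and 23 over the 4 Irgm_IFNAR-KO libraries, a ratio of scaled counts of 1120 (95% counting interval 745 to 1760). Apol9a held 5124 counts and 0, which makes it at least 1750-fold lower when 3 counts over the group are taken as the floor. Its near-identical copy Apol9b held 15239 and 3 (ratio 5190, counting interval 1780 to 25200), and reads of this pair, like those of the Oas, Slfn and Ifi200 families, may not be told apart. Hsh2d, an adaptor of blood cells, held 3390 and 3 counts (ratio 1160, interval 395 to 5610). Slfn4 held 1820 and 5 counts (ratio 372, interval 159 to 1150), and Ifi214 2130 and 12 (ratio 181, interval 104 to 352). The endothelial lipase gene Lipg, no antiviral gene, held 1328 and 7 counts (ratio 194, interval 93.9 to 483). Predicted genes were left out of the largest falls named, although Gm7609, for instance, held 3323 and 3 counts (ratio 1130, interval 387 to 5490). These intervals cover counting error only.

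Other families of interferon-induced genes fell too. Of 31 genes of the PARP, TRIM and Schlafen families 26 fell and 2 rose, with a median of -1.48. Parp12 fell by 2.02 (SE 0.0616), Trim30c fell by 3.99 (SE 0.119), Slfn1 fell by 5.24 (SE 0.159) and Slfn3 fell by 2.68 (SE 0.0705), while Trim5 rose by 0.66 (SE 0.111) and Parp8 by 0.32 (SE 0.0684), of which the Parp8 call ended with the replicate number as a block in the 8 libraries. Of 32 nucleic acid sensing genes 25 fell and 2 rose, with a median of -1.42. In the Ifi200 family of DNA sensors, Ifi213 fell from 155 ± 20.0 to 2.13 ± 0.141 CPM, Ifi206 from 196 ± 29.4 to 2.99 ± 0.51 and Ifi205 from 131 ± 16.8 to 2.33 ± 0.637, but Ifi208 rose from 0.147 ± 0.0249 to 1.1 ± 0.261. The endosomal RNA sensor Tlr3 fell from 120.0 ± 14.3 to 29.5 ± 3.28 CPM. Of the exceptions among the effectors, Ifi27 rose from 2.79 ± 0.69 to 20.7 ± 4.63 CPM (log2 change 2.89, SE 0.281) and Ifitm2 from 17.4 ± 4.04 to 47.6 ± 10.1.

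The share of promoters with an ISRE was higher among genes with deeper falls. The letters GAAA NN GAAA, with N for any base, were searched on both strands of the RefSeq promoter window, 250 bases before to 50 after the start in GRCm38.p6, which 9764 of the tested genes had. They occurred in 4.19% of these genes, in 3.12% of those called higher, in 6.71% of those called lower, in 10.9% of those lower by over 2-fold and in 24.1% (19 of 79) of those lower by over 16-fold. The letters TTTGAA, the cell-cycle homology region, were also more frequent among the deepest falls, at 14.6% of all tested genes, 14.6% of those lower, 15.9% of those lower by over 2-fold and 27.8% (22 of 79) of those lower by over 16-fold. Of the antiviral effectors with a promoter 54.3% (19 of 35) had a match, and 3.44% of all 32851 promoters in the table did. The promoters below show where the matches lay in genes that fell and in Gbp2b, which rose. They were chosen after their values were seen, are given 5′ to 3′ on the gene's strand as the 150 bases before the start, and carry the ISRE match in capitals, read as its reverse complement where it lies on the other strand. The matches sit within these 150 bases in each, as overlapping repeats in Isg15, Oas1g and Apol9a and as 2 separate sites in Ifit1.
Isg15 (chr4:156200819-156200968, - strand): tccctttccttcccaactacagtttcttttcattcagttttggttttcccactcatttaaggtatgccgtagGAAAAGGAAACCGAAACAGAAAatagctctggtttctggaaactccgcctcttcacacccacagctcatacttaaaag
Ifit1 (chr19:34640739-34640888, + strand): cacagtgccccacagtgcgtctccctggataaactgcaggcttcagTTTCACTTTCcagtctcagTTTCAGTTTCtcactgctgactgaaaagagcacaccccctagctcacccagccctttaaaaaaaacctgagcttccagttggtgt
Rsad2 (chr12:26456453-26456602, - strand): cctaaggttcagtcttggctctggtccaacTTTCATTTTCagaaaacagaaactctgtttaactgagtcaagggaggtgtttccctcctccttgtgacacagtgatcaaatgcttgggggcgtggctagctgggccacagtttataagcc
Oas1g (chr5:120887614-120887763, - strand): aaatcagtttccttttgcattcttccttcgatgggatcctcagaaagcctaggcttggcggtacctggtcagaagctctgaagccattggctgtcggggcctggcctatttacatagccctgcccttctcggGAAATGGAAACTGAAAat
Apol9a (chr15:77411081-77411230, - strand): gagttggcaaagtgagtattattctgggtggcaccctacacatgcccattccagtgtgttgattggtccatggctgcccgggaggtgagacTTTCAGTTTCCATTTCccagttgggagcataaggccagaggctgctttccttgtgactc
Gbp2b (chr3:142594697-142594846, + strand): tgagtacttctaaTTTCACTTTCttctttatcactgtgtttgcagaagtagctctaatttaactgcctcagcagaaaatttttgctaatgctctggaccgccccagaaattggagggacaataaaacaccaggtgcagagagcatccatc

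**Figure D2:**
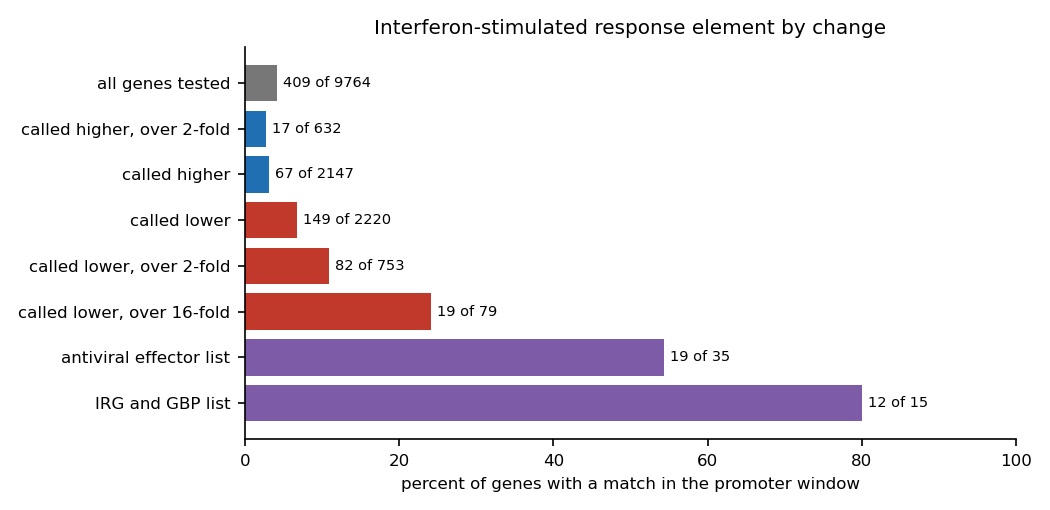
Bars give the percent of genes with at least 1 ISRE match in a RefSeq promoter window, with the number of genes beside each bar, for all genes tested (grey), genes called higher (blue), genes called lower (red) and 2 gene lists (purple). The share rises from 4.19% of all genes to 24.1% of genes lower by over 16-fold, and it is highest, at 80.0%, in the list of immunity-related GTPases (IRG) and guanylate-binding proteins (GBP), whose members moved both ways.

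The highest share of matches did not go with a fall of the whole list in the immunity-related GTPases, the family of Irgm1, and the guanylate-binding proteins. Both families act against intracellular pathogens and respond strongly to interferon gamma. Of 15 with a promoter 12 had an ISRE match, yet of the 24 tested 11 fell, 3 rose and 10 were not called, with a median of -0.26. Among all genes tested 21.3% fell and 21.5% rose, so the list leaned lower. Iigp1 read 1502, 1353, 1804 and 1319 CPM in Irgm1-KO and 3102, 3544, 2994 and 3214 in Irgm_IFNAR-KO, higher in all 4 libraries than in any Irgm1-KO or WT library (log2 fold change 1.10, SE 0.123, adjusted p = 1.65e-05). Gbp2b, whose promoter is printed above, read 593, 567, 884 and 627 and 1208, 1305, 1179.7 and 1306 CPM (log2 fold change 0.90, SE 0.151), near its WT level of 1369 ± 229. Gbp2 was called at 0.22 (SE 0.0782), a call that ended without any 1 of 7 libraries. The falls were small: Irgm2 fell by 0.50 (SE 0.0602), Igtp fell by 0.37 (SE 0.0625) and Tgtp1 fell by 0.76 (SE 0.0799), and only Gbp11 fell over 2-fold (log2 fold change -1.54, SE 0.126).

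Chemokines that recruit monocytes and T cells fell, while Cxcl9, which responds mainly to interferon gamma, was not called. Of 19 chemokines 11 fell and 4 rose (2 without Irgm1-KO replicate 1 or 4 or Irgm_IFNAR-KO replicate 2), with a median of -1.11. Ccl7 read 64.7, 66.1, 84.2 and 79.9 CPM in Irgm1-KO and 0.619, 1, 0.825 and 0.92 in Irgm_IFNAR-KO (log2 fold change -6.45, SE 0.195). Ccl2 read 104, 101, 112 and 109.9 and 4.87, 4.7, 4.95 and 6.11 CPM (log2 fold change -4.37, SE 0.108), and both lay below WT in all 4 double knockout libraries. Ccl12 fell by 3.45 (SE 0.212), Cxcl11 fell by 4.39 (SE 0.182) and Cxcl10 fell by 1.20 (SE 0.0981). Ccl5 fell from 885 ± 84 to 244 ± 71.8 CPM and stayed above its WT level of 94.5 ± 4.35. Cxcl9 was at 2715 ± 205 in Irgm1-KO, 2274 ± 504 in Irgm_IFNAR-KO and 741 ± 83.2 CPM in WT and was not called between the knockouts (log2 fold change -0.26, SE 0.142), although it was called lower without Irgm_IFNAR-KO replicate 4. Cxcl12 rose from 0.994 ± 0.284 to 7.25 ± 0.529 CPM and Ccl6 from 70.5 ± 18 to 136 ± 21.6. Among 9 chemokine receptors 4 rose and 2 fell (median 0.29): Cx3cr1 rose from 0.564 ± 0.177 to 6.2 ± 1.02 CPM, Ccr2 from 75 ± 39.6 to 248 ± 23.6 and Ccr1 from 5.39 ± 2.2 to 17 ± 5.35, while Ccrl2, a receptor that binds but does not signal, fell by 2.23 (SE 0.0723).

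Cytokines moved both ways, with 15 falls and 9 rises among 31 tested cytokines and receptors (median -0.13, and -0.31 without the 3 libraries farthest out). The interleukin-1 receptor antagonist Il1rn fell from 121 ± 18.2 to 10.2 ± 0.339 CPM (log2 fold change -3.56, SE 0.118), while Il1b, which it opposes, rose from 0.951 ± 0.103 to 4.88 ± 0.58 (log2 fold change 2.36, SE 0.182). Tnf fell by 0.47 (SE 0.131) and kept a level of 28.5 ± 3.11 CPM against 18.8 ± 2.91 in WT, and Il10 fell by 0.55 (SE 0.149). The macrophage growth factor Csf1 fell from 28.9 ± 2.37 to 2.83 ± 0.287 CPM, and Il18bp, an inhibitor of interleukin-18, fell by 1.11 (SE 0.0663). The interleukin-4 receptor gene Il4ra rose by 1.39 (SE 0.0776). In the NF-kB list 8 of 22 fell and 4 rose (7 without WT replicate 2, 8 without the 3 libraries farthest out) with a median of -7.35e-05. The falls were led by the adaptor Traf1 (log2 fold change -1.55, SE 0.0946), while Nfkbiz rose from 8.69 ± 2.02 to 26.3 ± 4.05 CPM and Tnfaip2 by 0.59 (SE 0.0748). Against WT the NF-kB list had a median of 0.55 in Irgm1-KO and of 0.50 in Irgm_IFNAR-KO, both against the same WT libraries. Among 18 surface Toll-like receptors and adaptors 7 rose and 4 fell (median 0.11), and the lipopolysaccharide coreceptor Cd14 rose by 1.23 (SE 0.0832).

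Genes of inflammasomes and cell death fell in 17 of 31 cases and rose in 1 (median -0.42). Mlkl, the effector of necroptosis, fell by 1.69 (SE 0.0693), Casp4, the receptor of cytosolic lipopolysaccharide, fell by 1.15 (SE 0.168), and the mitochondrial death gene Bak1 fell by 0.74 (SE 0.0616), while the death gene Bcl2l11 rose by 0.63 (SE 0.192), a call that ended without Irgm_IFNAR-KO replicate 1 or 3. Among 17 genes of nitric oxide, arginine, itaconate and the NADPH oxidase 6 fell and 2 rose (median -0.22, -0.38 without Irgm_IFNAR-KO replicate 4 and -0.0748 with a filter of 1 CPM in 4 libraries). Nos2, the inducible nitric oxide synthase, read 292, 264, 146 and 258 CPM in Irgm1-KO and 15.4, 26.1, 25.2 and 17.5 in Irgm_IFNAR-KO, with Irgm1-KO replicate 3 lowest of its group (log2 fold change -3.51, SE 0.297). Acod1, which makes itaconate, went from 1404 ± 135 to 312 ± 23.7 CPM, Ass1, which feeds arginine to Nos2, from 260.4 ± 37.1 to 53.6 ± 7.78, and Gch1, which makes its cofactor, from 45.1 ± 13.1 to 9.38 ± 1.44. Their WT levels were 261 ± 21.6, 56.6 ± 11.7 and 14.6 ± 3.38 CPM. Arg1 was nearly absent, with at most 43 counts over any group.

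**Figure D3:**
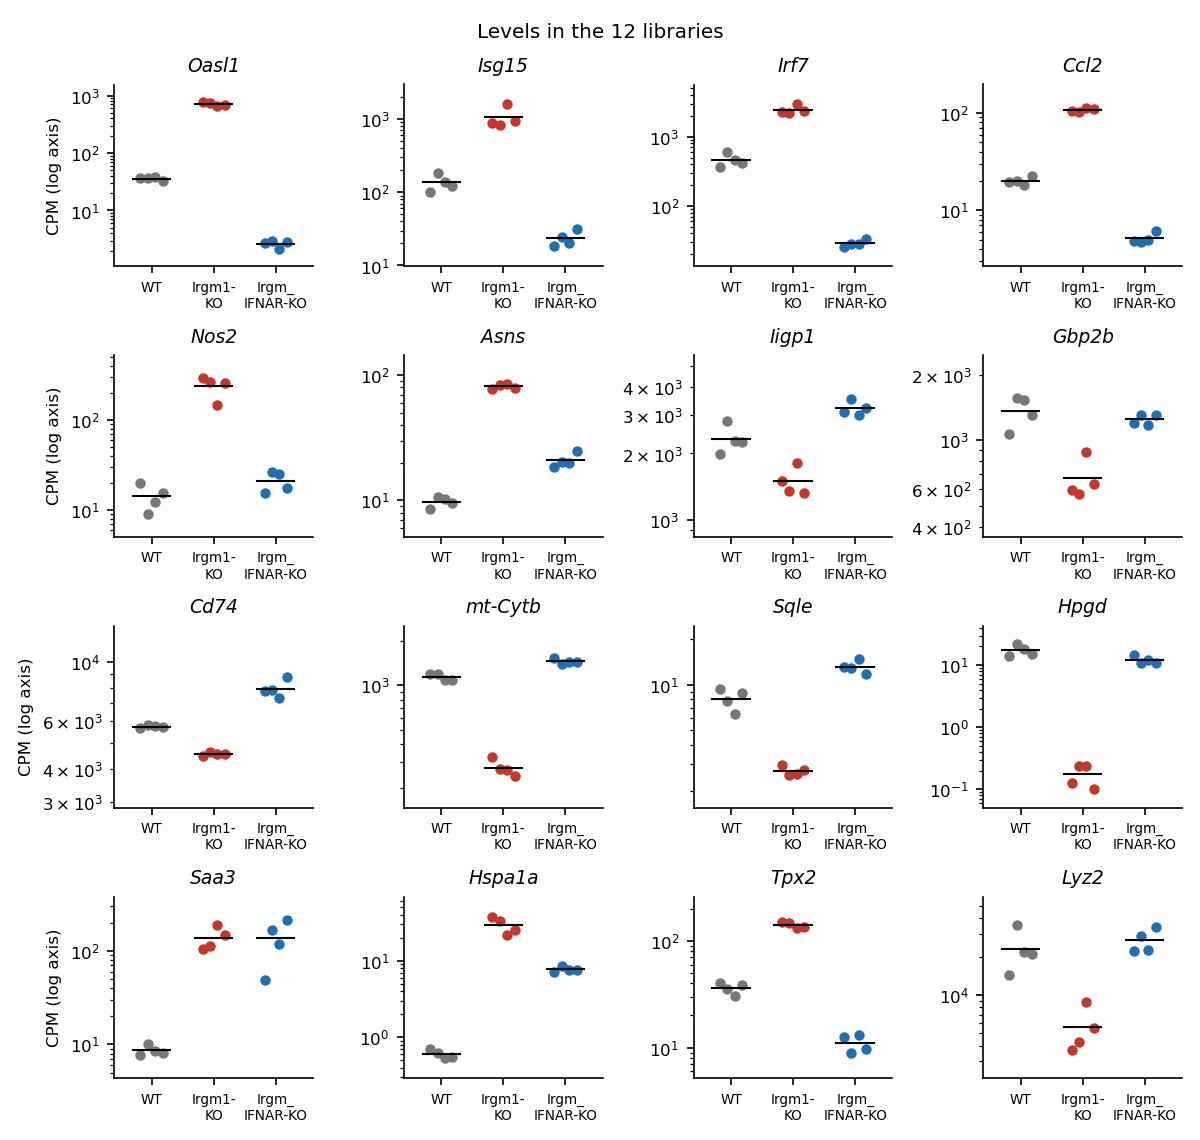
Points are the 4 libraries of WT (grey), Irgm1-KO (red) and Irgm_IFNAR-KO (blue) for 16 genes, in CPM on log axes, and lines are group means. The top row and Nos2 and Asns fall in the double knockout, Iigp1, Gbp2b, Cd74, mt-Cytb, Sqle, Hpgd and Lyz2 rise, Saa3 has means of 8.63, 138 and 137 in WT, Irgm1-KO and Irgm_IFNAR-KO, Hspa1a stays above WT, and Tpx2 falls below WT.

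Antigen presentation split by class. Of 24 genes of MHC class I presentation 16 fell and none rose (median -0.63): H2-K1 fell from 4470.4 ± 284 to 2411 ± 179 CPM (log2 fold change -0.89, SE 0.072), Tapbp, which loads peptide, fell by 1.03 (SE 0.105), and H2-T22 fell by 1.67 (SE 0.211). The near-identical H2-Q6 and H2-Q7 fell from 57.6 ± 2.15 to 2.81 ± 0.104 and from 72.5 ± 14.6 to 6.03 ± 0.897 CPM. Of 13 genes of MHC class II presentation 7 rose (11 without the 3 libraries farthest out) and none fell (median 0.73). Ciita, the master regulator of class II genes, read 344, 346, 272 and 330.1 CPM in Irgm1-KO and 662, 638, 672 and 543 in Irgm_IFNAR-KO (log2 fold change 0.96, SE 0.139). The invariant chain Cd74 read 4439, 4596, 4525 and 4535 and 7760.2, 7836, 7349 and 8763 CPM, above every WT library (5668 to 5810.3) in all 4 double knockout libraries (log2 fold change 0.81, SE 0.0611). H2-Eb1 rose from 935 ± 69.5 to 2028 ± 177 CPM. Among 19 costimulatory and checkpoint ligands 11 fell and 3 rose (median -0.58). Lgals9 read 538, 558, 607 and 547 and 67.3, 68.1, 63.6 and 77.5 CPM, Cd69 fell by 2.85 (SE 0.141) and Cd40 fell by 1.68 (SE 0.244), while Pdcd1lg2, a ligand of the checkpoint receptor PD-1, rose from 0.725 ± 0.0845 to 4.73 ± 0.525 CPM.

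Surface receptors of uptake moved both ways, and most called genes of alternative activation rose. Among 27 phagocytic and scavenger receptors 11 rose and 9 fell (median 0.41). The mannose receptor Mrc1 rose from 55.1 ± 7.11 to 265 ± 34.8 CPM, the beta-glucan receptor Clec7a from 117 ± 63.6 to 599.6 ± 152 and Pros1, a bridge to dying cells, from 11.3 ± 0.856 to 87.1 ± 6.25. Siglec1, an interferon-induced sialic acid receptor, fell from 509 ± 101 to 89.8 ± 19.5 CPM and Axl, a receptor for dying cells, from 727 ± 55.9 to 107 ± 4.32. Among 17 alternative activation genes 9 rose and 3 fell (median 1.24). The lectin Mgl2 read 0.679, 0.859, 1.2 and 0.466 CPM in Irgm1-KO and 11.9, 15.4, 12.2 and 12.7 in Irgm_IFNAR-KO, which also exceeded WT (2.89 to 4.07), and Clec10a rose from 24.1 ± 13.4 to 162 ± 17.5 CPM, while the factor Klf4 fell from 69.2 ± 13.2 to 10.4 ± 0.977. Among 23 Fc receptors and complement genes 8 fell and 5 rose (median -0.11). Fcgr3 rose from a mean of 389 ± 67 to 1315 ± 129 CPM (log2 fold change 1.76, SE 0.152), while complement C3 fell from 4761 ± 749 to 1749 ± 231 and Cfb fell by 2.63 (SE 0.23). Of 31 macrophage identity genes 11 rose and 10 fell (median 0.08): Csf1r, the growth factor receptor, was at 2089.7 ± 198 and 2408 ± 216 CPM and was not called, Adgre1 (F4/80) rose by 0.80 (SE 0.0556), and lysozyme, Lyz2, read 3709.8, 4248, 8813 and 5450.4 in Irgm1-KO and 22322, 29299, 22764 and 34047 CPM in Irgm_IFNAR-KO (a log2 fold change of 2.29, SE 0.314).

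All measured messages of the mitochondrial genome rose. Of its 13 mRNAs 7 were in the table, and the shares of counts below cover only these. The 7 mitochondrially encoded mRNAs tested all rose, with a median of 1.94, and the percent of counts they took was 0.474% ± 0.0233 in Irgm1-KO, 1.39% ± 0.0763 in Irgm_IFNAR-KO and 1.25% ± 0.0844 in WT (SD, n = 4 each, two-sided exact permutation test between the knockout groups p = 0.0286, the smallest that 4 against 4 libraries allow). Cytochrome b, mt-Cytb, read 324, 271, 264 and 242 CPM in Irgm1-KO and 1542, 1407, 1446 and 1453 in Irgm_IFNAR-KO, and the groups did not overlap (log2 fold change 2.41, SE 0.0919). mt-Nd1 rose by 2.10 (SE 0.0839), mt-Nd2 by 2.01 (SE 0.0728) and mt-Nd4 by 1.94 (SE 0.0985). Of 33 nuclear-encoded genes of oxidative phosphorylation 3 rose and 1 fell (median 0.13), with Uqcrh at 1.15 (SE 0.401), while cytochrome c, Cycs, fell by 0.96 (SE 0.148). That count of 3 rested on single libraries, as did the Uqcrh call: it was 0 without Irgm1-KO replicate 1, 2 or 4 or Irgm_IFNAR-KO replicate 2 or 4, 9 without Irgm1-KO replicate 3, 5 without WT replicate 2, and 12 without the 3 libraries farthest out. Of 34 genes that maintain mitochondrial DNA and RNA 11 fell and 5 rose (median -0.13), and Pnpt1, an interferon-induced nuclease that degrades mitochondrial RNA, fell from 93.2 ± 12.6 to 30.8 ± 3.47 CPM (log2 fold change -1.60, SE 0.14), against 40.6 ± 6.91 in WT.

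Most genes of cholesterol synthesis rose. Of 21 tested 17 rose and none fell (median 0.75). The sterol response element TCACNCCAC, searched on both strands as above, was in only 1 of 16 promoters of the list. It was in 0.791% of genes higher by over 2-fold against 1.37% of all tested genes. Sqle, which oxidises squalene, read 2.95, 2.54, 2.57 and 2.76 CPM in Irgm1-KO and 13.2, 12.9, 14.9 and 11.7 in Irgm_IFNAR-KO, and the groups did not overlap (log2 fold change 2.28, SE 0.126, adjusted p = 4.06e-08). Cyp51 rose by 2.10 (SE 0.154) and Pmvk by 1.95 (SE 0.184). Ch25h, an interferon-induced enzyme whose product 25-hydroxycholesterol shuts down sterol synthesis, fell from 155 ± 15.9 to 11 ± 1.54 CPM (log2 fold change -3.82, SE 0.118). In its list of sterol uptake and SREBP2 control 7 of 18 rose and 4 fell (median 0.28), and the sterol carrier Stard4 rose from 3.9 ± 0.515 to 31.4 ± 0.622. Of 15 LXR and efflux genes 7 rose and 4 fell (median 0.40): Abca9 read 2.65, 3.37, 1.49 and 2.73 and 64.6, 55.9, 69.2 and 44.3 CPM, Apoe rose by 1.67 (SE 0.135), and the receptor Nr1h3 itself fell by 2.02 (SE 0.237). Abca1 was not called (0.40, SE 0.258).

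More fatty acid and eicosanoid genes rose than fell. Of 29 fatty acid synthesis genes 15 rose and 7 fell (median 0.30), with Fads2 at 2.22 (SE 0.131) and Scd2 at 1.60 (SE 0.215), while the acyl-CoA synthetase Acsl1 fell by 1.13 (SE 0.138). Of 18 eicosanoid enzymes 11 rose and 3 fell (median 0.79). Hpgd, which inactivates prostaglandins, read 0.127, 0.236, 0.237 and 0.0998 CPM in Irgm1-KO and 14.5, 10.7, 12.1 and 10.7 in Irgm_IFNAR-KO (log2 fold change 6.07, SE 0.254), and Alox5, which starts leukotriene synthesis, rose from 0.77 ± 0.189 to 4.36 ± 0.515. Ptgs2, which starts prostaglandin synthesis and is induced by inflammation, fell from 111 ± 31.9 to 51 ± 8.39 CPM. Of 23 genes of mitochondrial fatty acid oxidation 8 rose and 2 fell (4 without the 3 libraries farthest out), with a median of 0.23.

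Among peroxisome genes, which oxidise very long-chain fatty acids and make ether lipids, more enzymes rose than fell. Of 25 peroxins and peroxisomal membrane proteins 6 rose and 5 fell (median 0.05), shares of members near those among all genes, and of 30 peroxisomal enzymes 10 rose (6 without Irgm_IFNAR-KO replicate 1 or 3) and 2 fell (median 0.18). The membrane proteins Abcd2 and Pxmp2 rose by 1.82 (SE 0.0859) and 1.63 (SE 0.273), while Pex16, which places membrane proteins, fell by 1.17 (SE 0.13) and the fatty acid carrier Abcd3 fell by 0.78 (SE 0.0705). Hsd17b4, the multifunctional enzyme of beta-oxidation, rose from 64.7 ± 2.98 to 121 ± 2.75 CPM (log2 change 0.91, SE 0.0619) and Far1, which starts ether lipid synthesis, from 55.5 ± 1.6 to 100.0 ± 8.54, while Phyh, of phytanic acid oxidation, fell by 1.01 (SE 0.101). The catalase gene Cat was called at 0.19 (SE 0.0632), a call that ended in 13 of 24 alternatives. Its level was 206 ± 12 and 234 ± 6.3 CPM.

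Of 33 genes of the ATF4 amino acid response 24 fell and 3 rose (median -1.11). Asns, which makes asparagine, read 77.6, 83, 85.8 and 79 CPM in Irgm1-KO and 18.3, 20.4, 20.1 and 24.8 in Irgm_IFNAR-KO (log2 fold change -1.96, SE 0.101), still above each WT library (8.61 to 10.6). Trib3 fell by 3.44 (SE 0.151), Ddit3 (CHOP) fell by 3.01 (SE 0.0984), Aars1 fell by 1.71 (SE 0.107) and Gdf15 fell by 2.44 (SE 0.149), while the kinase Eif2ak3 rose by 1.16 (SE 0.133). The C/EBP-ATF element TGATGNAA, searched on both strands as above, was in 30.8% of the list's promoters (8 of 26) against 2.82% of all tested genes. The Asns promoter shows its match in capitals, close to the start and without overlap with another motif searched.
Asns (chr6:7693210-7693359, - strand): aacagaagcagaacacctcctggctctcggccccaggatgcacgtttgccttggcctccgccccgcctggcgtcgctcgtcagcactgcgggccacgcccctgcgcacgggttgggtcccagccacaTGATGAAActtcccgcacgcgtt

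Heat-shock chaperones, which refold proteins, fell in 13 of 20 cases with no rise (median -0.48). Of the 20, 18 were higher than WT in Irgm1-KO and 15 in Irgm_IFNAR-KO. Hspa1a read 37.3, 33.6, 21.9 and 25.1 CPM in Irgm1-KO, 7.16, 8.48, 7.6 and 7.69 in Irgm_IFNAR-KO and 0.692, 0.63, 0.538 and 0.552 in WT, so the 3 groups stood apart in every library (log2 fold change between the knockouts -1.93, SE 0.155). Hspa1b, its near-identical copy, went from 41.2 ± 10.8 to 11.3 ± 1.35 CPM, and the constitutive Hspa8 was at 3738 ± 725 and 4978 ± 906 CPM and was called higher only without Irgm1-KO replicate 3 or without the 3 libraries farthest out, among the exclusions of libraries. Of 32 NRF2 and antioxidant genes 13 fell and 5 rose (3 without Irgm1-KO replicate 1 or 4 or Irgm_IFNAR-KO replicate 1), with a median of -0.22. The peroxiredoxin Prdx1 fell by 1.39 (SE 0.185), Keap1, the inhibitor of NRF2, fell by 1.49 (SE 0.0857), the autophagy receptor Sqstm1 fell by 1.42 (SE 0.0662) and Hmox1 fell by 0.66 (SE 0.0794). Of 35 genes of glycolysis and hypoxia 12 rose and 8 fell (median -0.09), with the stress-induced Ndrg1 at 2.13 (SE 0.132) and Aldoc at 1.97 (SE 0.179). Of 24 endoplasmic reticulum chaperones and Xbp1 targets 6 rose (3 without Irgm1-KO replicate 4, 10 without the 3 libraries farthest out) and 2 fell (1 without any replicate of either knockout except Irgm1-KO replicate 3 and Irgm_IFNAR-KO replicate 1, 4 without the 3 libraries farthest out), with a median of 0.12. Of 49 lysosome and autophagy genes 14 fell and 10 rose (6, 6 and 5 without Irgm1-KO replicate 1, 2 or 4), with a median of -0.06.

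More mitosis genes rose than fell, and more replication genes fell than rose. Of 30 mitosis genes 17 rose and 2 fell (1 without WT replicate 4 or without replicate 1, 2 or 4 of either knockout), with a median of 0.57. Against WT, 29 of the 30 were lower and 1 higher in Irgm1-KO, and 29 were lower and none higher in Irgm_IFNAR-KO. Cenpf, a kinetochore protein, rose from 2.7 ± 0.6 to 7.42 ± 2.67 CPM against 23.2 ± 7.01 in WT, and Top2a rose from 30.3 ± 2.67 to 57.6 ± 12 against 156 ± 22.9. Mki67 was not called (0.78, SE 0.311) but was called higher without WT replicate 1 or 2 or Irgm_IFNAR-KO replicate 4. Tpx2, a spindle assembly factor, went against the list, at 149.8, 145, 131 and 133 CPM in Irgm1-KO and 12.5, 8.91, 13.1 and 9.67 in Irgm_IFNAR-KO (log2 fold change -3.66, SE 0.145), and all 4 double knockout libraries lay below WT (30.4 to 40.7). Of 37 replication and G1/S genes 22 fell and 6 rose (median -0.43). In Irgm1-KO 16 of the 37 were lower than WT and 10 higher, and in Irgm_IFNAR-KO 30 were lower and 1 higher. The cyclin genes Ccnd1 and Ccnd2 had log2 fold changes of -2.15 (SE 0.122) and -2.88 (SE 0.163). The helicase subunit Mcm5 fell by 1.03 (SE 0.177), while Rrm2, which supplies nucleotides, rose by 1.09 (SE 0.181). The cell-cycle homology region TTTGAA was in 74.1% of the mitosis promoters (20 of 27) against 14.6% of all tested genes, and the E2F site TTTNNCGC was in 40.7% of the replication promoters (11 of 27) against 9.90%.

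The remaining lists held single genes with large changes. Of 14 osteoclast-type genes 6 fell and 3 rose (median -0.105), with Slc9b2 at -4.11 (SE 0.35) and the fusion gene Ocstamp at -1.95 (SE 0.152). Of 23 immediate-early genes 10 rose and 8 fell (median 0.21, 0.0869 in a fit of only the 8 knockout libraries and 0.0229 with a filter of 1 CPM in 4 libraries), with Egr3 at 2.73 (SE 0.184) and the stress factor Atf3 at -1.18 (SE 0.115). Of 27 insulin-like growth factor and matrix genes 7 rose and 7 fell (median 0.09): Igf1r read 0.722, 0.724, 0.389 and 0.682 CPM in Irgm1-KO and 8.84, 7.2, 7.5 and 5.14 in Irgm_IFNAR-KO, and Igfbp4 rose from 11.3 ± 2.66 to 100.2 ± 12.4. The metalloprotease Adam19 had the largest rise among genes that reached 5 CPM in a group mean and whose groups did not overlap, at 0.0849, 0.135, 0.0338 and 0.0998 CPM in Irgm1-KO and 11.6, 9.52, 14.8 and 9.65 in Irgm_IFNAR-KO (log2 fold change 6.97, SE 0.522). With predicted genes left out, it was followed outside these lists by Plxdc2 (4.54, SE 0.266), the gap junction gene Gja1 (4.25, SE 0.171), the collagen receptor gene Itga1 (4.22, SE 0.218), the adaptor Gab1 (3.77, SE 0.287) and Rtn1 (3.56, SE 0.186).

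**Figure D4:**
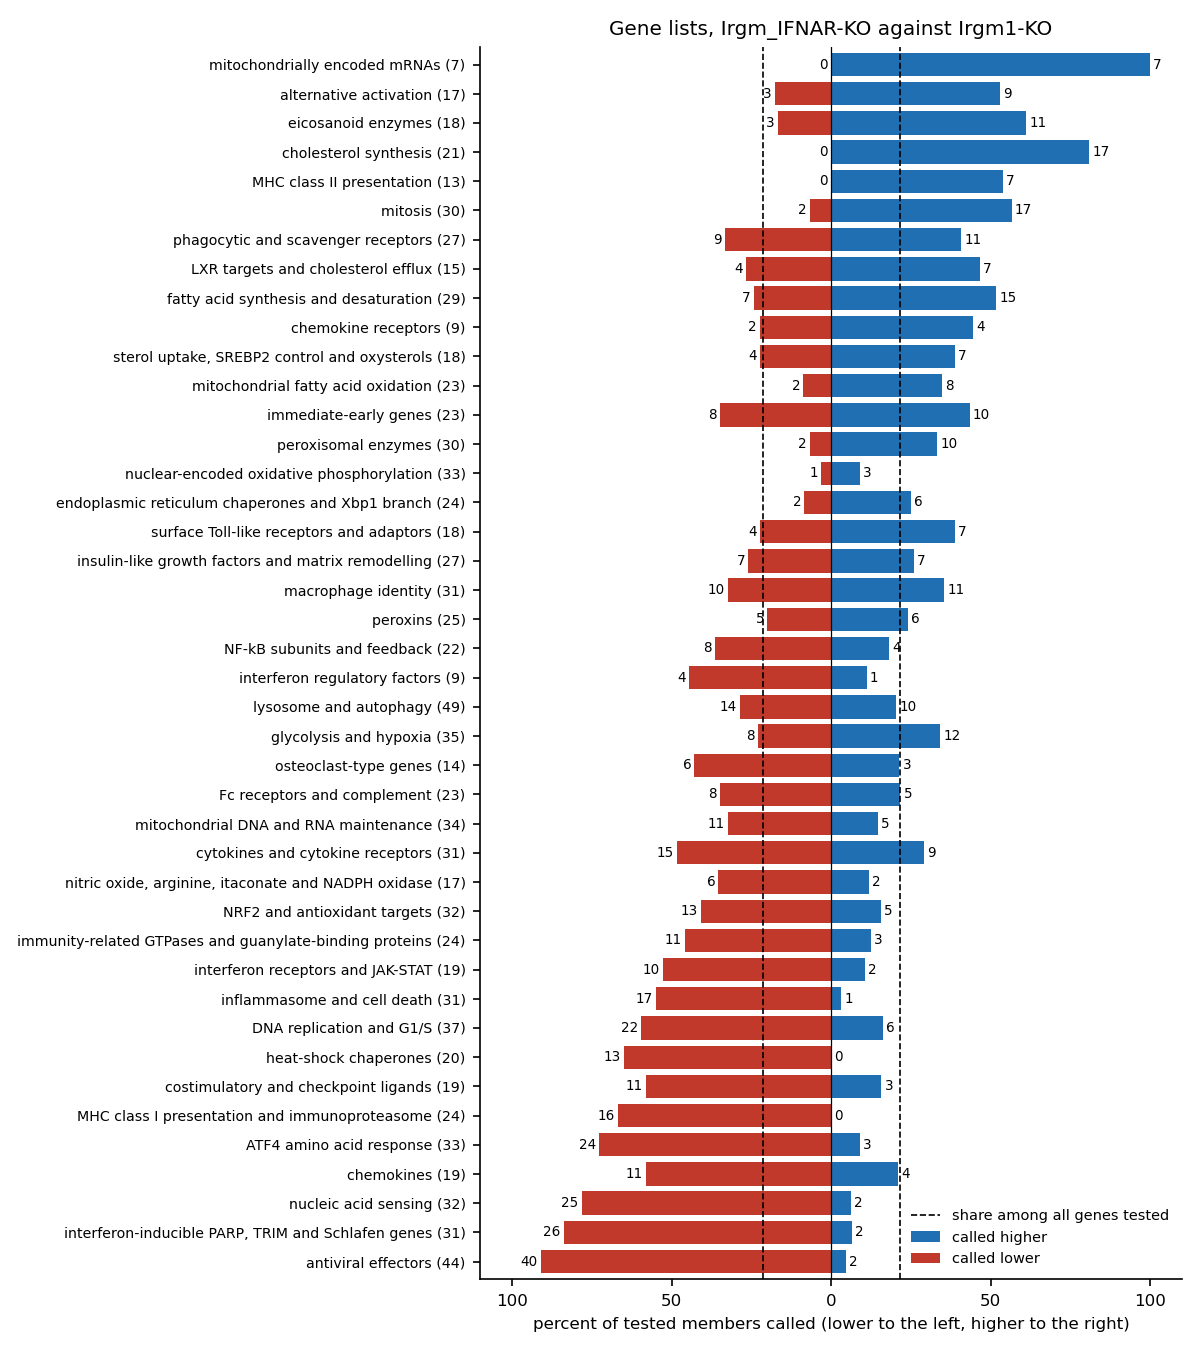
For each gene list the blue bar gives the percent of tested members called higher in Irgm_IFNAR-KO than in Irgm1-KO and the red bar the percent called lower, with the number of members called at the bar's end, the number tested in brackets and lists ordered by median log2 fold change. Dashed lines mark the share among all genes, 21.5% higher and 21.3% lower; antiviral effectors stand at the bottom (40 of 44 lower) and mitochondrially encoded mRNAs at the top (7 of 7 higher).

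WT libraries gave a further reference. Of all genes tested 552 (3.94%) were higher and 1150 (8.22%) lower in Irgm_IFNAR-KO than in WT, while 2767 (19.8%) were higher and 2893 (20.7%) lower in Irgm1-KO than in WT. These contrasts share the WT libraries with each other and the knockout libraries with the main comparison. Antiviral effectors had a median of 1.56 over WT in Irgm1-KO and of -1.61 in Irgm_IFNAR-KO. Cholesterol synthesis went from -0.67 to 0.21, MHC class II from -0.35 to 0.27 and mitochondrially encoded mRNAs from -1.65 to 0.29. Heat-shock chaperones had medians of 0.99 and 0.56, ATF4 targets of 1.06 and 0.20, and mitosis genes of -2.09 and -1.53. Replication and G1/S genes had medians of -0.19 and -0.76, so they lay farther from WT in Irgm_IFNAR-KO. Timd4, a receptor for dying cells, was at 0.277 ± 0.11 CPM in WT, 14.4 ± 4.64 in Irgm1-KO and 8.86 ± 1.06 in Irgm_IFNAR-KO. Its fall between the knockouts was called at -0.70 (SE 0.228), a call that ended without Irgm1-KO replicate 2 or 4 or without Irgm_IFNAR-KO replicate 1 or 2.

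**Figure D5:**
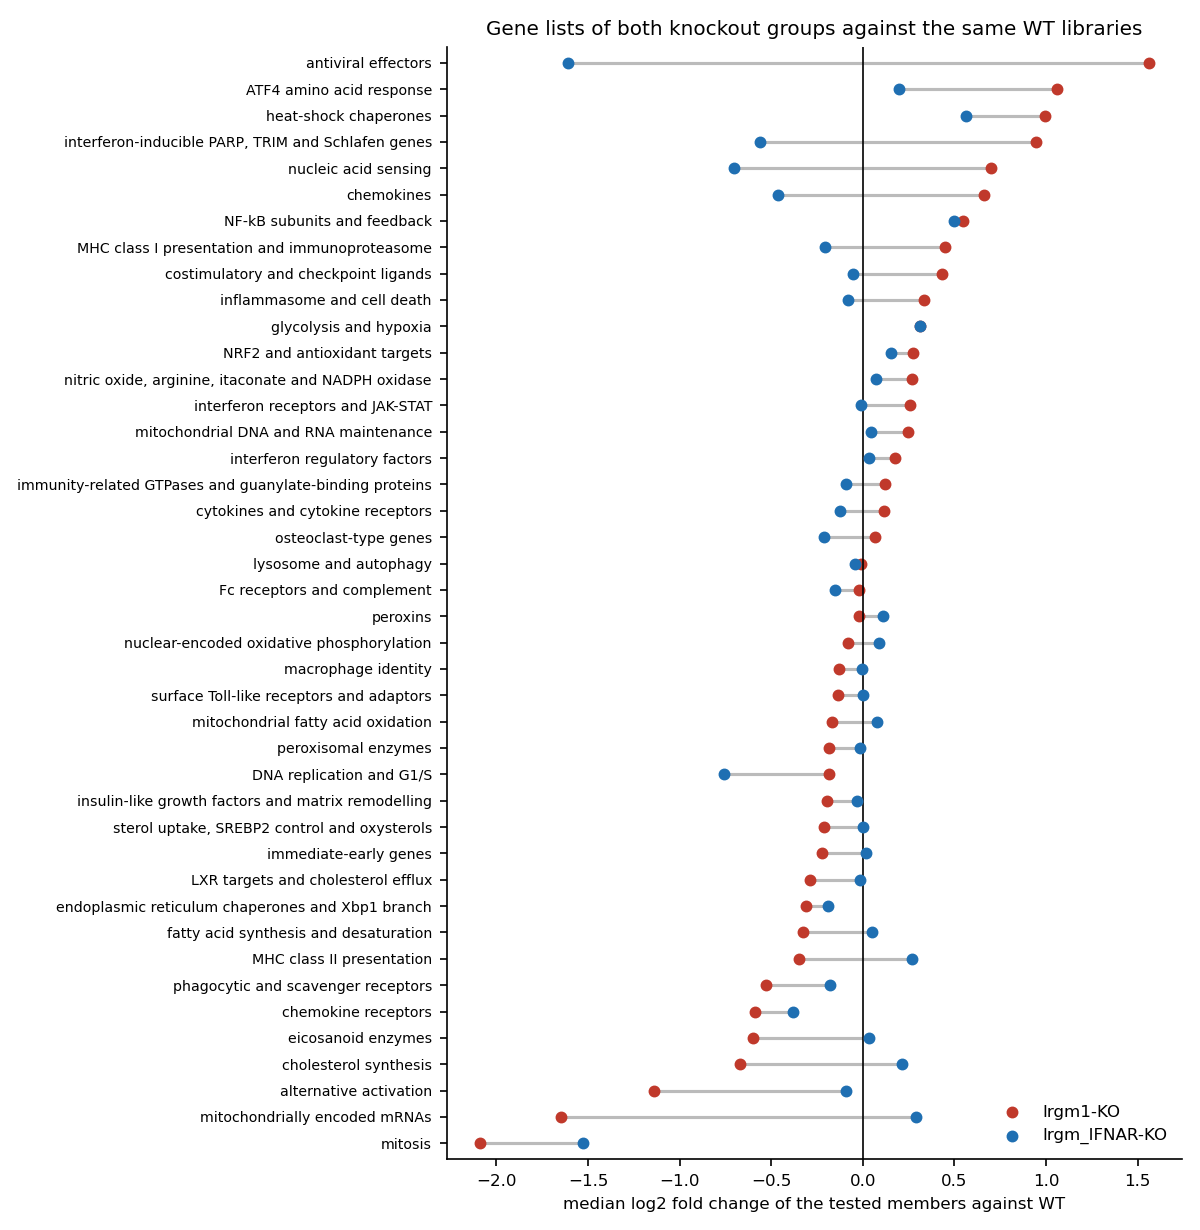
For each gene list the points give the median log2 fold change of the tested members against WT in Irgm1-KO (red) and in Irgm_IFNAR-KO (blue), joined by a grey line; both use the same 4 WT libraries. Antiviral effectors cross from 1.56 to -1.61, cholesterol synthesis and mitochondrially encoded mRNAs cross to the other side of 0, and mitosis genes stay far below 0 in both groups (-2.09 and -1.53).

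Genes beside the targeted loci were read separately, by distance in the GENCODE M21 annotation of GRCm38. Within 1 Mb of Ifnar1 on chromosome 16, 10 of 23 tested genes (43.5%) were called against 42.8% of all genes, and within 1 Mb of Irgm1 on chromosome 11, 12 of 21 (57.1%). Between Irgm_IFNAR-KO and WT, 3 of the 23 genes near Ifnar1 were called. The predicted gene Gm49727 near Ifnar1, picked out after its values were seen, read 0.0407, 0, 0.0179 and 0.131 CPM in WT, 0.0849, 0.0505, 0.0169 and 0.0333 in Irgm1-KO and 2.88, 2.18, 2.03 and 2.13 in Irgm_IFNAR-KO, so it was detected well only in the double knockout. Cfap298, likewise near Ifnar1, was at 3.16 ± 0.589, 2.55 ± 0.384 and 5.39 ± 0.982 CPM, above both other groups. Tmem50b, a further neighbour, was at 100.1 ± 5.45, 35.1 ± 2.52 and 95 ± 1.66 CPM, so it was low in Irgm1-KO and at the WT level in the double knockout.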

How the data were processed

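Messenger RNA of mouse BMM was measured by RNA-seq in 12 libraries of 3 genotypes, grouped by the genotype in the labels. The authors deposited raw read counts per Ensembl gene, 1 column per library, and genes with fewer than 10 counts in every library are not listed. The submitters' processing notes name fastp, STAR, DESeq2 and build GRCm39. The counting tool, its annotation and any strand setting were not given in the sources used here, and overlapping and near-identical genes may share reads.

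The 12 libraries were fitted together with edgeR 4.0.16 (R 4.3.3; TMM scaling, filterByExpr with a minimum count of 10 and total of 15, robust quasi-likelihood test, Benjamini-Hochberg adjustment over 13998 of 15423 genes, threshold 0.05). On data simulated for this comparison over 13998 genes, the test called 91 of 100 genes changed by 2-fold and 98 of 100 changed by 4-fold, with 11 false calls. Only these genes were changed, all genes had a biological coefficient of variation of 0.17, and the libraries shared no axis of variation. In the real comparison 42.8% of genes were called, so the recovery may not carry over. Alternatives used DESeq2 1.42.0, limma 3.58.1, other filters and scalings, covariates and left-out libraries. CPM are of the TMM-scaled library. The members and lists were chosen with earlier results of these data known, and some lists follow earlier work on these samples, so their counts are descriptions.

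Genes were named by a rule: the 12 largest rises and falls among genes that reached 5 CPM in a group mean and whose groups did not overlap, up to 4 genes per list by smallest p plus up to 2 more, and genes fixed by name. The largest rises and falls left out predicted genes (Gm or Rik names, or no symbol), Xist and Y-linked genes. Genes printed outside the rule, among them Lyz2, C3, Cxcl9, Mrc1, Clec7a, Clec10a, Siglec1, Cenpf, Mcm5, Rrm2, Prdx1, Pmvk, Pxmp2, Scd2, Tapbp, H2-T22, Cd40, Aars1, Saa3, the genes near Ifnar1 and all of the closing observations, were picked after their values were seen. Promoter windows came from RefSeq in GRCm38.p6, and no coordinate was converted between builds. The second experiment was not used here, and some list members are not reported here.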

Additional observations from a re-analysis of the deposited data

Results flagged for a closer look

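In 402 groups of 4 libraries (each gene named and each share, in each knockout group), 49 held a library whose gap to the nearest other exceeded the share of the group's range set by Dixon's 95% limit for 4 values. Chance gives about 1 in 20 such groups where values are independent and normally distributed. The genes here share the same libraries, and some were picked after their values were seen, so this share is no test of the 49. Irgm1-KO replicate 3 was the library apart in 23 of them and Irgm_IFNAR-KO replicate 4 in 13, and the cause was not tested. Levels below are CPM, with the range of the other libraries of the group in brackets.

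Irgm1-KO replicate 3 was the highest library of its group for Ass1 at 316 (236 to 248), Ccl12 at 151 (86.2 to 94.9), Cd40 at 262 (160 to 163), Clec7a at 213 (82.3 to 89.2) and Cycs at 167 (123 to 130). It was also highest for Gch1 at 64.6 (37.4 to 39.6), Hspa8 at 4820 (3330 to 3400), Ifnb1 at 3.79 (1.4 to 1.73), Irf7 at 3000 (2240 to 2340), Isg15 at 1580 (834 to 940) and Isg20 at 192 (124 to 136). It was also highest for Klrk1 at 109 (74.3 to 78.5), Mlkl at 214 (195 to 197), Ms4a4c at 1360 (702 to 757), Oas1g at 162 (90 to 99), Slfn1 at 479 (375 to 376) and Tmem176a at 14 (7.58 to 8.26). It was also highest for Tmem176b at 33.7 (14.2 to 17.2), Uqcrh at 260 (100 to 125) and Usp18 at 947 (556 to 600). Irgm1-KO replicate 3 was the lowest library of its group for Eif2ak3 at 15.5 (19.8 to 20.5), Igf1r at 0.389 (0.682 to 0.724) and Itga1 at 0.322 (0.552 to 0.589). Irgm_IFNAR-KO replicate 4 was the highest library of its group for Bak1 at 226 (203 to 206), Ccl12 at 12.5 (8.35 to 8.97), Cycs at 85.8 (63.1 to 66.6), Ifitm2 at 62.5 (40.8 to 44.3), Ifnb1 at 0.625 (0.163 to 0.233) and Phyh at 71.6 (61 to 62.4). It was also highest for mt-Nd1 at 1470 (1360 to 1380). Irgm_IFNAR-KO replicate 4 was the lowest library of its group for Aars1 at 98.8 (109 to 111), Far1 at 87.3 (103 to 106), Klf4 at 8.97 (10.7 to 11), Siglec1 at 60.5 (99 to 100) and Tlr3 at 24.6 (30.7 to 31.6). Irgm_IFNAR-KO replicate 4 had the lowest share of counts from the antiviral effectors in its group, at 0.335% (0.357 to 0.361). Irgm1-KO replicate 1 was the highest library of its group for Cx3cr1 at 0.828 (0.455 to 0.508), Far1 at 57.8 (54.3 to 54.9), Ifi213 at 185 (143 to 148) and mt-Nd2 at 232 (200 to 205). Irgm1-KO replicate 2 had the lowest share of counts from mitochondrially encoded mRNAs in its group, at 0.439% (0.485 to 0.487). Irgm1-KO replicate 4 was the highest library of its group for Tmem50b at 38.8 (33.6 to 34.2). Irgm1-KO replicate 4 was the lowest library of its group for Pdcd1lg2 at 0.599 (0.758 to 0.778). Irgm_IFNAR-KO replicate 1 was the highest library of its group for Keap1 at 66.7 (63.2 to 63.4). Irgm_IFNAR-KO replicate 1 was the lowest library of its group for C1s1 at 8.22 (13 to 14) and Ccrl2 at 19.9 (21.8 to 22). Irgm_IFNAR-KO replicate 3 was the highest library of its group for Mx1 at 23.4 (17.6 to 18.5). Irgm_IFNAR-KO replicate 3 was the lowest library of its group for Ifnar1 at 53.1 (108 to 114) and Il18bp at 233 (256 to 259).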

How the results depend on the processing

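Over 24 alternatives the 197 genes named gave 4724 values, of which 4672 kept their direction and their side of the threshold, 36 lost the call, 16 gained one and 0 changed direction. The median log2 fold change of all genes ran from -0.0119 to 0.0497. The count of genes called higher was 4631 with the log2 level of Xist as a covariate, against 3014; the cause was not tested. Every other count of calls over all genes, in either direction and also over 2-fold, stayed within 1.5 times its value under each alternative. Leaving out each library in turn gave 2494 to 3434 genes called higher and 2651 to 3324 lower, and without the 3 libraries farthest out, an alternative chosen after seeing the data, 3612 and 4040. DESeq2 called 3181 and 3328. The labels do not say whether the replicate number pairs the samples. The deviations of same-numbered Irgm1-KO and Irgm_IFNAR-KO libraries correlated at 0.318, -0.168, -0.429 and -0.1, and those of Irgm1-KO replicate 3 and Irgm_IFNAR-KO replicate 4 at 0.579. A single axis held 53.8% of the variance within groups, so these correlations cannot exclude a weaker pairing. With the replicate number as a block the counts were 2799 higher and 2840 lower in 12 libraries and 2315 and 2675 in 8. In the latter the rises fell from 9 to 5 among cytokines, from 10 to 6 among peroxisomal enzymes and among lysosome genes, from 5 to 1 among NRF2 targets, from 3 to 1 in nuclear-encoded oxidative phosphorylation and from 2 to 1 in the PARP, TRIM and Schlafen list, the falls from 4 to 2 among interferon regulatory factors and from 2 to 1 in mitosis, and the immediate-early median from 0.21 to 0.0885. The Xist covariate moved 21 list counts by over 1.5 times, among them the rises in nuclear-encoded oxidative phosphorylation from 3 to 14, in endoplasmic reticulum chaperones from 6 to 13, in MHC class II from 7 to 12 and in NF-kB from 4 to 9. The filter of 1 CPM in 4 libraries lowered the rises among chemokines from 4 to 2 and in nucleic acid sensing from 2 to 1, the fit of only 8 libraries lowered those among peroxisomal enzymes from 10 to 6, and DESeq2 raised the falls in alternative activation from 3 to 5 and among peroxisomal enzymes from 2 to 4. Upper-quartile factors moved the inflammasome rises from 1 to 2 and the mitosis falls from 2 to 1. The difference in the mitochondrial mRNA share ran from 0.881 to 0.964 percentage points and that of the antiviral share from -2.34 to -2.1. At depths of 49.9 to 60.8 M counts, genes with few counts in 1 group have ratios known only within wide intervals.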

Other observations

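Some transcripts that were higher in Irgm1-KO than in WT were not called between the 2 knockout groups. The acute-phase gene Saa3 was at 8.63 ± 1.03 CPM in WT, 138 ± 39.2 in Irgm1-KO and 137 ± 70.7 in Irgm_IFNAR-KO (SD, n = 4 each), with single double knockout libraries from 48.5 to 214. The membrane metalloprotease Mmp14 was at 10.1 ± 4.52, 40.0 ± 8.12 and 47.2 ± 3.05 CPM in the same order, and the complement protease C1s1 at 2.38 ± 0.531, 13.1 ± 0.407 and 12.1 ± 2.6. Between the knockouts their log2 fold changes were -0.01 (SE 0.349), 0.24 (SE 0.24) and -0.12 (SE 0.17). These genes were picked after their values were seen, and the 3 groups come from 1 fit.

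Other transcripts were higher in Irgm_IFNAR-KO than in either other group. The apolipoprotein L gene Apol7c read 2.17 to 4.58 CPM in WT, 2.44 to 6.28 in Irgm1-KO and 15.3 to 30.5 in Irgm_IFNAR-KO. The ion channel relatives Tmem176a and Tmem176b were at 12.4 ± 1.42 and 32.8 ± 6.48 CPM in WT, 9.45 ± 3.04 and 20.3 ± 8.98 in Irgm1-KO and 38.1 ± 4.35 and 84 ± 13.8 in Irgm_IFNAR-KO. The Wnt receptor Fzd1 was at 4.19 ± 1.18, 4.28 ± 1.74 and 14.7 ± 2.15 CPM in the same order, Plbd1 at 87.3 ± 8.92, 49.7 ± 5.96 and 189 ± 34.7, and Lrmda at 1.91 ± 1.49, 1.41 ± 0.318 and 13.8 ± 2.18. The predicted gene Gm16867 on chromosome 14 had 0 counts in every WT and Irgm1-KO library and read 3.55, 3.59, 3.14 and 3.33 CPM in Irgm_IFNAR-KO (786 counts in all), at least 256-fold higher than Irgm1-KO when 3 counts over the group are taken as the floor. Selenop, which carries selenium in plasma, was lowest in Irgm1-KO, at 2803 ± 673 CPM in WT, 517 ± 181 in Irgm1-KO and 2869 ± 435 in Irgm_IFNAR-KO.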
